A study of Mus musculus with 6 samples.

Results

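The 6 genes Prl2c2, Prl2c3, Prr9, Ngfr, Cck and Selp were transcribed in growing C2C12 cells and were almost undetectable after 4 days of differentiation. They were chosen by symbol from the 43074 gene symbols of a table of RNA sequencing counts, because they fell by some of the largest factors between day 0 and day 4, and all 6 were among the 17433 genes tested. The values that chose them are those of both day 4 groups against day 0, so these are described here without a test. C2C12 is an established mouse myoblast line, labelled WT, that fuses into myotubes when serum is changed. Day 0 cells were untreated and grown in medium with 10% fetal bovine serum. Day 4 cells had been moved to medium with 5% horse serum and received either DMSO, the vehicle, or 4-phenylbutyric acid (4-PBA) at 1 mM, an aromatic fatty acid used as an inhibitor of histone deacetylases and as a chemical chaperone. Each group had 2 libraries, all of batch 1, and day 0 is therefore separated from day 4 by serum, time and vehicle together.

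The 6 genes do not form a pathway. Prl2c2 and Prl2c3 encode proliferins, secreted hormones of the prolactin family that were first known from serum-stimulated fibroblasts and from placenta, and proliferin is known to hold back the differentiation of cultured myoblasts. Cck encodes cholecystokinin, a peptide hormone of gut and brain. Ngfr encodes the p75 neurotrophin receptor, a death domain receptor for the neurotrophins that is also found on myogenic cells, and Selp encodes P-selectin, an adhesion receptor of platelets and endothelium that binds leukocytes. Prr9 encodes a small proline-rich protein and lies in the epidermal differentiation complex, a cluster of skin barrier genes.

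The proliferin genes on chromosome 13 are near copies of each other, and this bears on every separate value given for them. In the GENCODE M21 transcripts, the 842 bases of Prl2c2 aligned with Prl2c3 at 99.52% identity, with 4 differing bases, of which 3 lay in the 672 coding bases. Prl2c5, another proliferin gene, was 96.6% identical to Prl2c2 and 96.4% identical to Prl2c3. Of all 100-base windows of the Prl2c2 transcript, 63.5% were also present letter for letter in Prl2c3, whereas 2.83% were present in Prl2c5. Counted from the first coding base, Prl2c3 differed from Prl2c2 by T14C, C200A and T319G (the base of Prl2c2 first, then the position, then the base of Prl2c3). The following coding stretches, bases 170 to 230 and then 289 to 349, are shown because they hold C200A and T319G. Capitals mark every position at which any of the 3 genes differ, and they are the only letters by which a read from these stretches could be assigned.
Prl2c2: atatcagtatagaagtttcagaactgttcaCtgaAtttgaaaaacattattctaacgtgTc
Prl2c3: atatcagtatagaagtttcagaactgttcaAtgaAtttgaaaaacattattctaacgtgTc
Prl2c5: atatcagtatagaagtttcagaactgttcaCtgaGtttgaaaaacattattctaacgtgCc
Prl2c2: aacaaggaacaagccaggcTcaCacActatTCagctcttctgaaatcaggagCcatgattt
Prl2c3: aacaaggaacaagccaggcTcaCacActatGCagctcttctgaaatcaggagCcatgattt
Prl2c5: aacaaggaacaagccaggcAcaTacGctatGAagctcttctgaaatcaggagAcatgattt

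Library depth was 47908926 to 74697397 total counts, so a single read corresponded to a very low level and day 4 counts of 0 to 25 per library limited the precision of the 6 genes. Within every group the replicates were further apart than sampling noise allows. The labels do not say that replicates came from separate cultures, so the p-values given measure only the spread between these samples. Levels are CPM, counts relative to a library's total after TMM scaling, as mean ± SD with n = 2. The day 4 cells carried the marks of differentiation: Myog, a transcription factor of differentiating myoblasts, went from 7.90 to 287 CPM with DMSO and 288 CPM with 4-PBA, and Myh3, embryonic myosin heavy chain, went from 18.9 to 2017 and 2043 CPM. The proliferation marker Mki67 kept 33.9% of its day 0 level with DMSO and 38.6% with 4-PBA. In such bulk libraries, fewer cells of a kind and less RNA per cell cannot be told apart.

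Prl2c3 was the most abundant of the 6 genes. It had 7582 and 11293 counts in the day 0 libraries, 25 and 23 in those with DMSO, and 20 and 15 in those with 4-PBA. The day 0 libraries stood far above the 4 day 4 libraries, and no day 4 library had more than 25 counts although the cells had been deeply sequenced. The level was 158 ± 3.43 CPM at day 0, 0.353 ± 0.0609 CPM with DMSO and 0.282 ± 0.0570 CPM with 4-PBA. That was 449-fold lower with DMSO and 562-fold lower with 4-PBA than at day 0.

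Prl2c2 had 2020 and 3129 counts in the day 0 libraries, 16 and 4 in those with DMSO, and 2 and 8 in those with 4-PBA. The day 4 replicates of each treatment lay 4-fold apart in counts, more than the treatments did. The level of Prl2c2 was 43.1 ± 2.13 CPM at day 0, 0.154 ± 0.141 CPM with DMSO and 0.0805 ± 0.0683 CPM with 4-PBA. The log2 fold change from day 0 was -8.19 with DMSO and -9.03 with 4-PBA. Without DMSO replicate 1 the first was -9.59, and without 4-PBA replicate 2 the second was -10.3.

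Cck had 325 and 434 counts in the day 0 libraries, 8 and 1 in those with DMSO, and 0 and 8 in those with 4-PBA. The library with 0 counts, 4-PBA replicate 1, allows a level of up to 0.0483 CPM at 3 counts. The level of Cck fell from 6.43 ± 0.357 CPM to 0.0701 ± 0.0801 CPM with DMSO and 0.0644 ± 0.0911 CPM with 4-PBA, so the SD exceeded the mean in both day 4 groups. Its log2 fold change from day 0 was -6.57 with DMSO and -6.60 with 4-PBA. Leaving out DMSO replicate 1 gave -8.70 for the first, and leaving out 4-PBA replicate 2 left only the library without a Cck read.

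Ngfr, the p75 receptor, had 684 and 887 counts in the day 0 libraries, 4 and 11 in those with DMSO, and 19 and 9 in those with 4-PBA. Here the 4-PBA library with the fewest counts lay below the DMSO library with the most. The level of Ngfr was 13.4 ± 1.02 CPM at day 0, 0.106 ± 0.0600 CPM with DMSO and 0.225 ± 0.114 CPM with 4-PBA. That was 126-fold lower with DMSO and 59.2-fold lower with 4-PBA than at day 0. Either DMSO library taken alone gave a share of Ngfr left of 0.475% (replicate 1) or 1.11% (replicate 2). The 4-PBA libraries taken alone gave 2.29% (replicate 1) or 1.09% (replicate 2).

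Selp had 1254 and 1810 counts in the day 0 libraries, 22 and 16 in those with DMSO, and 14 and 12 in those with 4-PBA. Its day 0 libraries agreed closely, at 25.8 ± 0.0138 CPM. The level of Selp was 0.282 ± 0.0940 CPM with DMSO, 91.4-fold lower, and 0.209 ± 0.0228 CPM with 4-PBA, 123-fold lower. In GENCODE M21, exons of Selp overlap 2 genes on the opposite strand, Gm16548 and Gm16587, and whether counting used strand is not given in the sources used here, so reads of these genes could be among those of Selp. The other 5 genes have no exon overlap in that annotation.

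Prr9 had 568 and 852 counts in the day 0 libraries, 2 and 4 in those with DMSO, and 5 and 4 in those with 4-PBA. These were the fewest day 4 reads of any of the 6 genes with DMSO, 6 in all. The level of Prr9 was 11.9 ± 0.318 CPM at day 0, 0.0428 ± 0.0157 CPM with DMSO and 0.0725 ± 0.0114 CPM with 4-PBA, which was 278-fold and 164-fold lower.

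**Figure D1:**
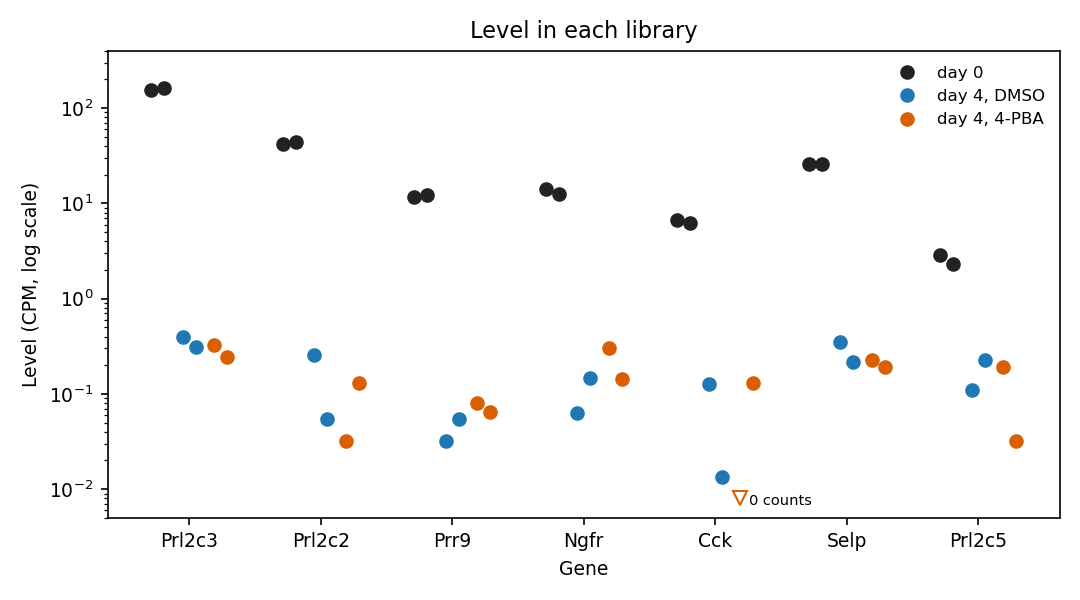
Level of each gene in each library (CPM, log scale) by gene and group, 1 point per library, with an open triangle at the foot for the library with 0 counts and Prl2c5 added at the right. For each of the 6 genes both day 0 libraries lie far above the 4 day 4 libraries, and the DMSO and 4-PBA points overlap except for Prr9. The nearest DMSO and 4-PBA points of Prr9 both rest on 4 reads.

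Per kilobase of merged exons, a scale on which levels of genes can be compared, the order at day 0 was Prl2c3 (116.5 CPM per kilobase), Prl2c2 (39.5), Prr9 (10.1), Selp (5.84), Cck (4.93) and Ngfr (3.88). At day 0 the libraries of neighbours in this order did not overlap. With DMSO at day 4, Prl2c3 was still first by its mean, at 0.260 CPM per kilobase. Its lower library, at 0.228, lay above both of Prl2c5, the next in order, but below the higher one of Prl2c2 (0.233). Below Prl2c3 each neighbour in the order overlapped the next in its libraries, over mean levels from 0.145 CPM per kilobase for Prl2c5 to 0.0307 for Ngfr. Genes further apart could still be separate: the lower library of Selp, at 0.0489 CPM per kilobase, lay above the higher ones of Prr9 (0.0456) and Ngfr (0.0430).

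The share of the day 0 level left at day 4 was taken from the counts pooled over each group's libraries, with an exact 95% interval that covers counting error only. With DMSO, Prl2c3 kept 0.221% (0.163% to 0.293%), Prl2c2 0.338% (0.207% to 0.522%) and Prr9 0.367% (0.135% to 0.799%). Ngfr kept 0.818% (0.458% to 1.35%), Cck 1.02% (0.466% to 1.93%) and Selp 1.07% (0.759% to 1.47%). Single libraries spread more widely than these intervals for Prl2c2, from 0.125% to 0.589%, and for Cck, from 0.209% to 1.97%. For Prl2c3 (0.196% to 0.250%), Prr9, Ngfr and Selp the single libraries lay within the intervals. A single library has fewer reads than the pool and so a wider counting interval of its own. Lying outside or within the pooled intervals therefore does not measure spread beyond counting error. With 4-PBA, Prl2c3 kept 0.178% (0.124% to 0.247%), Prl2c2 0.187% (0.0897% to 0.344%) and Prr9 0.608% (0.278% to 1.16%). Ngfr kept 1.69% (1.12% to 2.44%), Cck 1.00% (0.432% to 1.97%) and Selp 0.812% (0.530% to 1.19%). With 4-PBA the libraries of Ngfr ran from 1.09% to 2.29% and those of Cck from 0% to 2.0%, so these genes had no order.

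**Figure D2:**
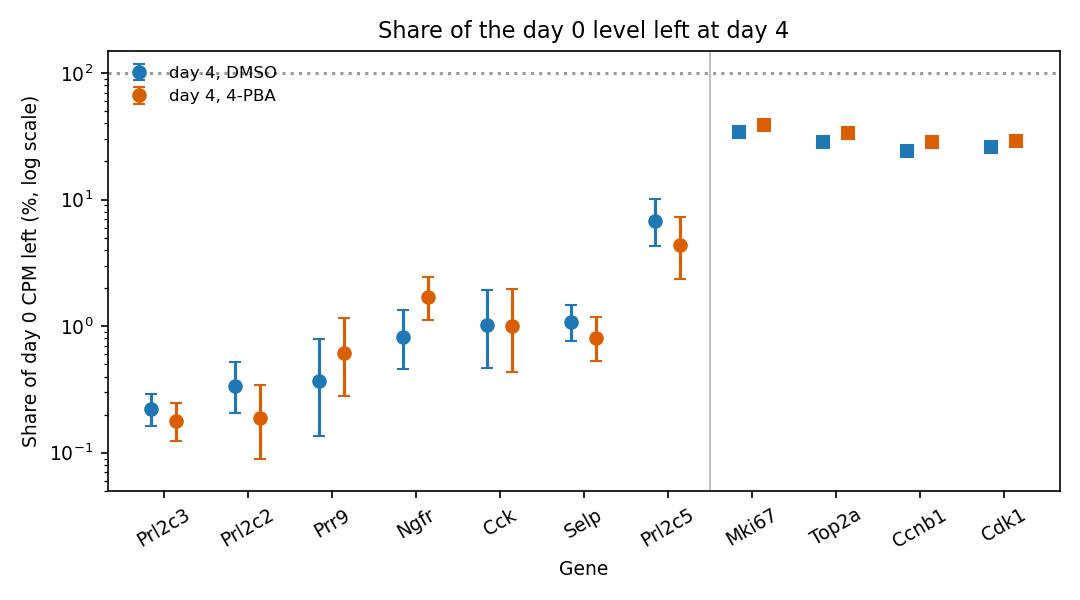
Share of the day 0 level left at day 4 (%, log scale) for each gene with DMSO and with 4-PBA; the points are group values from pooled counts and the bars their exact 95% counting intervals; squares at the right are the proliferation genes. Prl2c3 keeps 0.221% with DMSO and 0.178% with 4-PBA, Ngfr keeps 0.818% and 1.69%, and Prl2c5, which is not among the 6, keeps 6.75% and 4.35%.

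Falls of this size were rare in these cells, although falling was not. Of the 17433 tested genes, 32.6% were called lower and 33.8% higher with DMSO than at day 0, and 32.4% lower and 33.2% higher with 4-PBA (edgeR's quasi-likelihood test, Benjamini-Hochberg adjusted p under 0.05). Of the 10454 genes with at least 5 CPM at day 0, 15 (0.143%) kept less than 5% of their level with DMSO and 14 (0.134%) with 4-PBA. The share under 2% was 0.0670% (7 genes) and 0.0861% (9 genes), and it includes the 6 genes, whose choice rested on these values. The proliferation genes Mki67, Top2a, Ccnb1 and Cdk1 kept 24.3% to 33.9% with DMSO and 28.6% to 38.6% with 4-PBA, so these markers fell far less than the 6 genes did. The summed level of the 4 was 1333 to 1358 CPM at day 0, 360 to 426 CPM with DMSO and 450 to 461 CPM with 4-PBA, and its part in the falls was not tested.

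No gap in the falls set the 6 genes apart from the next gene, though wider steps followed further down. Ranked by log2 fold change with DMSO among genes called lower, with at least 5 CPM at day 0 and no overlap between groups, Selp was the sixth at -6.53. Serpinb2, which encodes plasminogen activator inhibitor 2, came next at -6.46, then Krt13, a keratin of stratified epithelia, at -5.59, 1700012B09Rik at -5.54, Itgb7, an integrin subunit of lymphocytes, at -4.67, and Slco4a1, an organic anion transporter, at -4.52. With 4-PBA, Serpinb2 at -7.22 was the fourth, ahead of Selp (-6.93), Cck (-6.60) and Ngfr (-5.87), and Krt13 at -6.07 stood ahead of Ngfr. The next genes after Ngfr in that ranking were 1700012B09Rik (-5.82), Slco4a1 (-5.47), the chemokine gene Cxcl5 (-5.02), Itgb7 (-4.66) and the cytokine receptor subunit gene Csf2rb (-4.58).

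With the 6 genes themselves left out, Serpinb2, Krt13 and 1700012B09Rik were the 3 genes nearest to each of them in profile over the 6 libraries. The measure was the Euclidean distance of log2 CPM centred on day 0, among 10448 candidates. Being centred on day 0, this distance mostly reflects the size of the fall. It therefore restates the ranking above and is not a second, separate likeness. The closest of these matches was Selp with Serpinb2, at a distance of 0.424, and the widest nearest match was Prl2c3 with Serpinb2, at 4.34. Serpinb2 had 1446 and 2007 counts in the day 0 libraries, 27 and 18 in those with DMSO, and 12 and 12 in those with 4-PBA. It thus ran beside Selp in every group. Exons of Serpinb2 overlap Serpinb10 on the same strand, so its counts could include reads of that gene.

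**Figure D3:**
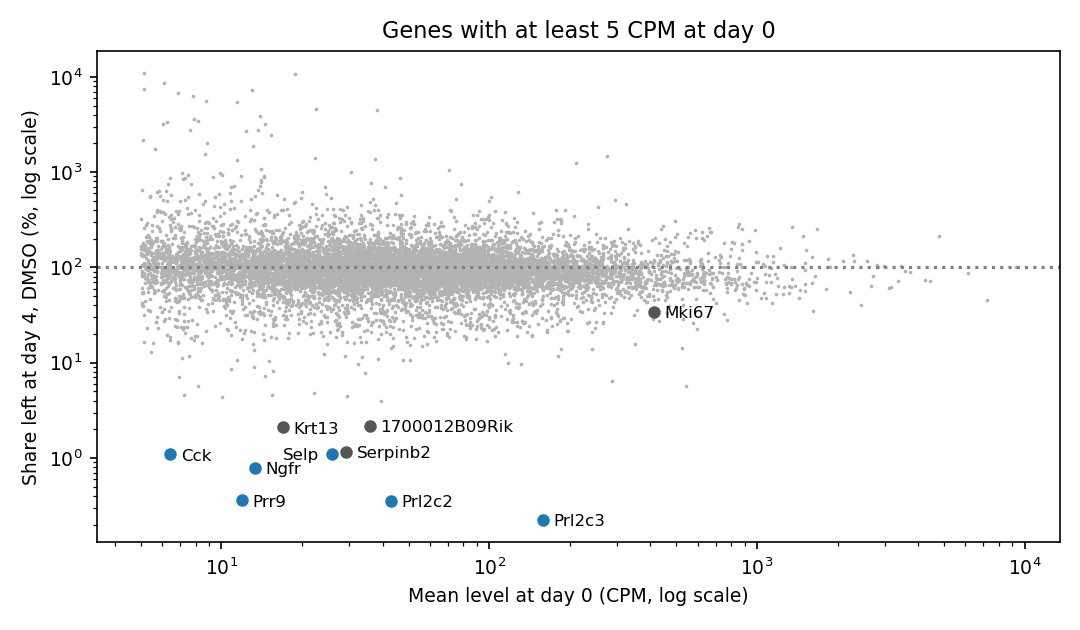
Share of the day 0 level left with DMSO at day 4 (%, log scale) against the mean day 0 level (CPM, log scale) for genes with at least 5 CPM at day 0, 1 point per gene. The 6 genes (blue) lie below nearly all others, at about 1% or less, beside Serpinb2, Krt13 and 1700012B09Rik (dark grey), while Mki67 lies at 33.9%.

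Another proliferin gene, Prl2c5, was not among the 6 and kept more of its level. It had 139 and 163 counts in the day 0 libraries, 7 and 17 in those with DMSO, and 12 and 2 in those with 4-PBA. Its replicates at day 4 were uneven in both treatments. Prl2c5 fell with a log2 fold change of -3.88 with DMSO (SE 0.391, edgeR adjusted p = 2.51e-10) and -4.49 with 4-PBA (SE 0.428, adjusted p = 7.19e-11), and was lower in 4 of 4 day 4 libraries. Pooled over libraries, 6.75% (4.32% to 10.0%) of its level was left with DMSO and 4.35% (2.38% to 7.30%) with 4-PBA, and its share in single libraries was 4.28% and 8.84%, then 7.46% and 1.24%. Prl2c1, the remaining proliferin-like row with reads, had 3 and 7 counts at day 0 and 0 in all 4 day 4 libraries.

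The make-up of the proliferin reads differed accordingly. Prl2c3 held 77.8% and 77.4% of the reads of the 4 Prl2c rows in the day 0 libraries, 52.1% and 52.3% with DMSO, and 58.8% and 60.0% with 4-PBA. Prl2c5 held 1.24% of the group's reads at day 0 (1.11% to 1.39%), 26.1% with DMSO (17.5% to 36.3%) and 23.7% with 4-PBA (13.6% to 36.6%). These shares rest on 92 proliferin reads with DMSO and 59 with 4-PBA, against 24336 at day 0. Within the day 4 groups the share of Prl2c5 was 14.6% and 38.6% with DMSO and 35.3% and 8.0% with 4-PBA, while that of Prl2c2 was 33.3% and 9.09%, then 5.88% and 32.0%. In each treatment the library with more Prl2c2 had less Prl2c5. How reads shared by these genes were assigned is not given in the sources used here, so the split between the rows is uncertain. The sum of the rows does not depend on that split, but it would change if shared reads were dropped or counted more than once. Its log2 fold change from day 0 was -8.25 with DMSO and -8.74 with 4-PBA.

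**Figure D4:**
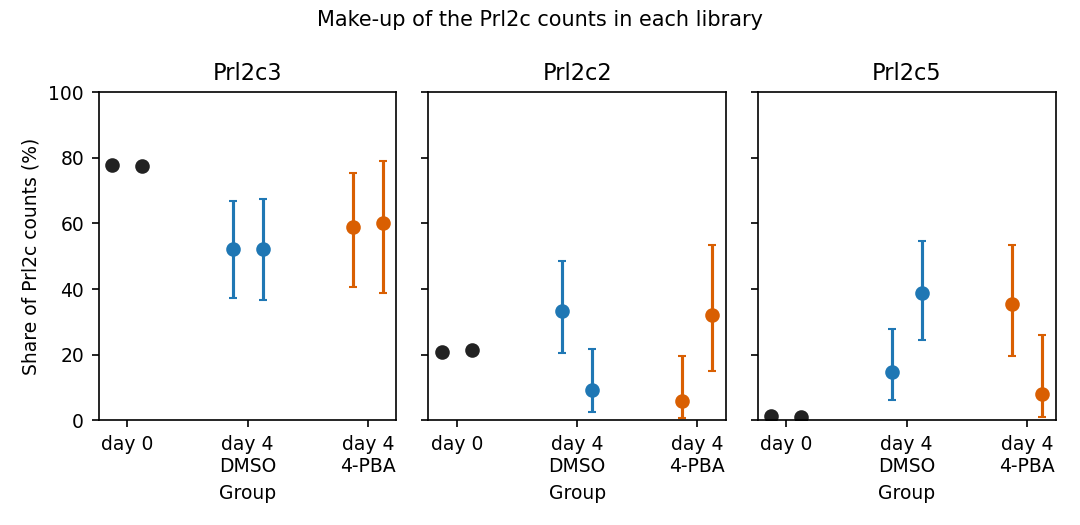
Share of the reads of the 4 Prl2c rows (%) held by Prl2c2, Prl2c3 and Prl2c5 in each library, with exact 95% intervals for counting error. Prl2c3 holds over 77% at day 0 and 52.1% to 60.0% at day 4, and Prl2c5 goes from at most 1.43% to between 8.0% and 38.6%.

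Whether the drug moved what was left of these genes was asked by setting the 4-PBA libraries against those with DMSO. This was not the contrast that chose them, but it shares the day 4 libraries that did. None of the 6 genes was called (edgeR, adjusted p under 0.05; 0 of 6 also with the DESeq2 Wald test), while 4.90% of all tested genes were called. Genes were admitted to the test by their counts in all 6 libraries, day 0 included, where these 6 genes were high. At day 4 they had only 0 to 25 counts per library, so the absence of calls does not show an unchanged level. At an unadjusted p under 0.05 there was 1 of the 6, Ngfr, against 16.7% of all tested genes. In CPM the libraries of both treatments did not overlap for 1 of the 6, Prr9, against 45.5% of all tested genes. In counts Prr9 was tied, with 4 reads both in DMSO replicate 2 and in 4-PBA replicate 2. Since no relabelling of 2 and 2 libraries reaches a p of 0.05, the test draws on the spread that edgeR shares among genes.

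Ngfr had the largest difference, a log2 fold change of 1.03 for 4-PBA against DMSO (SE 0.487, unadjusted p = 0.0412, edgeR adjusted p = 0.271). This ranged from 0.40 without 4-PBA replicate 1 to 1.80 without DMSO replicate 2, with adjusted p-values of 0.120 to 0.884 over the alternatives. Prr9, with 4 or 5 reads per 4-PBA library against 2 and 4 with DMSO, had 0.71 (SE 0.718, edgeR adjusted p = 0.709). The other 4 had negative values: -0.84 for Prl2c2 (SE 0.686), -0.40 for Selp (SE 0.368), -0.31 for Prl2c3 (SE 0.285) and -0.03 for Cck (SE 1.03), with edgeR adjusted p-values of 0.616 to 0.994. A value of either sign was obtained for Prl2c2 and Cck according to which library was left out, -2.11 to 0.56 and -5.11 to 2.10, where -5.11 rests on the library with 0 counts and is no measure of size. With SEs of this size a change of 2-fold in Prl2c2, Prr9 or Cck was not detectable at this depth, and the value of 1.03 for Ngfr was not called either. Changes were also simulated in genes with at least 100 counts at day 0 and at most 100 at day 4, with a median of 65 at day 4. Of these, 8 of 66 changes of 2-fold and 51 of 66 changes of 4-fold were called between the treatments. Serpinb2, nearest to Selp, had -0.76 (SE 0.366, edgeR adjusted p = 0.287), and the proliferin rows summed had -0.50 (edgeR adjusted p = 0.256).

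**Figure D5:**
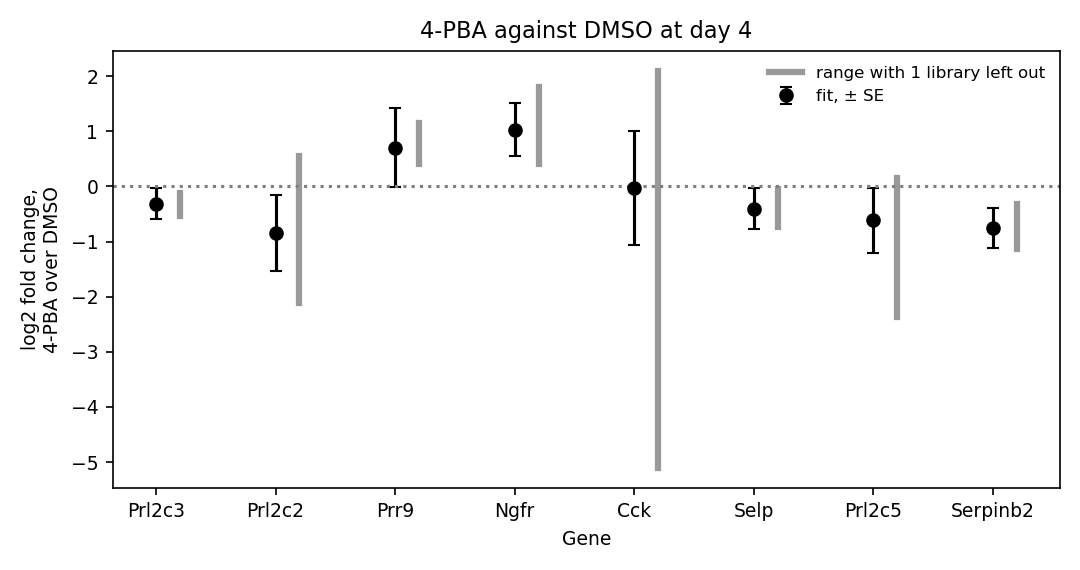
Log2 fold change of 4-PBA against DMSO at day 4 for each gene, Prl2c5 and Serpinb2, as a point with bars of 1 SE and a grey line for the range of values after leaving out each library in turn. The values of Prl2c2 and Cck fall on both sides of 0 when libraries are left out, and that of Ngfr runs from 0.40 to 1.80.

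Genes that work with the 6 were taken as lists of ligands, receptors and processing enzymes. The counts of each list stand beside the same shares over all tested genes. These are 33.8% higher and 32.6% lower with DMSO against day 0, 33.2% and 32.4% with 4-PBA, and 4.90% called between the treatments. Of 29 rows of the prolactin family and its receptors in the table, 23 had reads, and 3 besides Prl2c2 and Prl2c3 could be tested. With DMSO against day 0, where 66.3% of all tested genes were called, 1 of the 3 rose (Igf2r), 1 fell (Prl2c5) and 1 was not called. Igf2r, the mannose 6-phosphate receptor that also binds proliferin, rose from 107 to 196 CPM (log2 fold change 0.87, SE 0.0338, edgeR adjusted p = 2.93e-22). The prolactin receptor gene Prlr had 1 to 5 counts per library. With 4-PBA against day 0, where 65.6% of all tested genes were called, the same counts of 1 higher and 1 lower were obtained, and none of the 3 was called between the treatments (edgeR, adjusted p under 0.05; unadjusted p of 0.0550 for Igf2r and 0.309 for Prl2c5).

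For the partners of the p75 receptor, 8 of 24 tested genes rose and 9 fell with DMSO. Over all tested genes, 33.8% rose and 32.6% fell with DMSO. The median log2 fold change of the list was 0.0072, against 0.023 over all tested genes. Sort1, which encodes sortilin, a co-receptor of p75 for proneurotrophins, rose from 2.34 to 13.8 CPM (log2 fold change 2.57, SE 0.112), and Sorcs2, of the same family, rose from 186 to 578 CPM (1.64, SE 0.0301). Kidins220, a scaffold of neurotrophin receptors, rose by 1.22 and Ripk2, an adaptor kinase of p75, fell by 1.11 on the log2 scale.

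Of the other neurotrophin ligands and receptors, Bdnf, brain-derived neurotrophic factor, rose by 0.33 (SE 0.0817, edgeR adjusted p = 9.50e-04), a call lost without day 0 replicate 1 (adjusted p = 0.0606). Ntrk3, the receptor for neurotrophin 3, fell by 1.09 (SE 0.250, edgeR adjusted p = 2.41e-04), from 2.17 to 1.02 CPM. Ntrk2 had 5 or 6 counts per library and Ntf3 had 1 to 10. With 4-PBA against day 0, 8 genes of the list rose and 8 fell. Between the treatments 1 was called, Bex3, an interactor of p75 that was 0.18 higher on the log2 scale with 4-PBA (SE 0.0465, edgeR adjusted p = 0.0159), a call lost without either 4-PBA library (adjusted p = 0.206 and 0.0819). Exons of Bdnf, Sort1 and Kidins220 overlap a gene on the opposite strand.

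For cholecystokinin, 1 of 9 tested genes of hormone processing rose and 6 fell with DMSO, against 33.8% and 32.6% of all tested genes. The median log2 fold change of these 9 was -0.34. Pam, the enzyme that amidates peptide hormones, rose from 225 to 333 CPM (log2 fold change 0.56, SE 0.0304, edgeR adjusted p = 3.95e-18). Cpe, a carboxypeptidase of prohormones, fell by 0.45 and Tpst1, a tyrosylprotein sulfotransferase, fell by 0.45, each to about 73% of its day 0 level. Ctsl, a cathepsin that takes part in prohormone cleavage, fell by 0.34. The receptor gene Cckar had 0 counts in all libraries, and Cckbr had 10 and 6 at day 0 and at most 1 in each day 4 library. With 4-PBA against day 0, 1 rose and 5 fell. Between the treatments Pam was the 1 gene called, 0.11 lower on the log2 scale with 4-PBA (SE 0.0301, edgeR adjusted p = 0.0326), a call that held only without DMSO replicate 1 when libraries were left out in turn (adjusted p = 0.0674 to 0.320 without each of the other 5). Exons of Pam and Ctsl overlap other genes.

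For P-selectin, 8 of 17 tested genes of selectins, their ligands and the glycosyltransferases that build those ligands rose and 7 fell with DMSO. The shares over all tested genes were 33.8% and 32.6%, and the median log2 fold change of the 17 was 0.13. Podxl, a sialomucin related to CD34, fell from 58.4 to 9.19 CPM (log2 fold change -2.66, SE 0.0686, edgeR adjusted p = 1.57e-27). Cd24a, which encodes a ligand of P-selectin, fell by 2.18 from 1.98 CPM, Gcnt1, a glycosyltransferase of selectin ligands, rose by 1.86 to 2.07 CPM, and Ezr, which encodes ezrin, fell by 0.87. Selplg, the main P-selectin ligand, had 1 read in each of 2 libraries and none in the other 4. Sele had reads only in 4-PBA replicate 2, where there were 2. Between the treatments, Podxl2 was 0.75 higher with 4-PBA (SE 0.193, edgeR adjusted p = 0.0156) and Cd44 0.12 lower (SE 0.0289, edgeR adjusted p = 0.00775). The call of Podxl2 was lost without 4-PBA replicate 2 (adjusted p = 0.374), without DMSO replicate 2 (0.0997) and with the DESeq2 Wald test (0.0519), and that of Cd44 without 4-PBA replicate 1 (0.302) or replicate 2 (0.0645). Exons of Podxl2 and Ezr overlap a gene on the opposite strand.

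For the epidermal differentiation complex and the cornified envelope, 4 of 16 tested genes other than Prr9 rose and 8 fell with DMSO. The shares over all tested genes were 33.8% and 32.6%, and the median log2 fold change of the 16 was -0.51. Sprr1a, a small proline-rich envelope precursor, fell from 38.5 to 4.19 CPM (log2 fold change -3.21, SE 0.126, edgeR adjusted p = 4.72e-12) and was 5.53 CPM with 4-PBA. S100a3 fell by 1.46, S100a10 by 0.60 and S100a11 by 0.52, while S100a13 rose by 0.63, all 4 encoding proteins of the S100 family. Low rows went both ways: Sprr2h had 20 and 16 counts at day 0 and 0 in all 4 day 4 libraries, and Sprr3 had 0 at day 0 and 12 to 18 in each day 4 library. With 4-PBA against day 0, 3 rose and 8 fell. Between the treatments S100a11 was called, 0.097 higher with 4-PBA (SE 0.0292, edgeR adjusted p = 0.0466) and, when libraries were left out in turn, this call held only without DMSO replicate 1 (adjusted p = 0.0682 to 0.430 without each of the other 5). Sprr1a, at 0.41 with edgeR adjusted p = 0.150, had 3.42e-06 without DMSO replicate 1.

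Markers of the cell types for which these genes are best known summed to at most 8.10 CPM in any library. Of the Schwann cell markers Sox10 and Foxd3 had 0 counts in every library, and the sum of the 5 markers was 2.51 to 2.78 CPM at day 0, 4.00 to 4.23 CPM with DMSO and 2.93 to 3.61 CPM with 4-PBA. The 6 endothelial markers summed to 1.72 to 1.95 CPM at day 0 and 2.24 to 3.03 CPM at day 4. Among them Kdr went from 0.316 CPM to 0.0202 CPM with DMSO and 0.0322 CPM with 4-PBA, and Tek from 0.667 CPM to 2.07 and 1.47 CPM. The 4 platelet markers summed to 3.13 to 4.09 CPM at day 0, 3.96 to 4.14 CPM with DMSO and 4.03 to 4.51 CPM with 4-PBA, mostly Itga2b. Pf4 and Gp1ba had 0 counts in every library, and Ppbp went from 0.427 CPM to 0.0452 and 0.0483 CPM. The part of any of these markers in the falls was not tested. The 4 neuroendocrine markers summed to at most 0.593 CPM and the 5 trophoblast markers to at most 0.135 CPM in any library. Keratinocyte markers summed to 7.58 to 7.59 CPM at day 0, 7.56 to 7.85 CPM with DMSO and 7.91 to 8.10 CPM with 4-PBA, mostly Krt14 and Krt10. None of these sums fell at day 4 by as much as the 6 genes did.

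Promoter sequences of 5 of the 6 genes and of Prl2c5 were matched in RefSeq (GRCm38.p6), as 300 bases from 250 before to 50 after the start site. The letters of AP-1, CRE, EGR, NF-kB, CArG, TATA, GC box and E-box motifs were searched on both strands. The AP-1 motif TGACTCA was found in Prr9 alone of the 5, at position -138, and in 5.20% of 32851 promoters. TATAAA was found in Prr9 alone, at position -30, and in 13.6% of all promoters. TATA was searched only as these exact letters, so a variant such as the tatataag of the Prl2c3 window was not counted. The CRE letters TGACGTCA (1.79% of promoters), the EGR letters GCGTGGGCG (0.612%), the NF-kB motif (0.155%) and the CArG motif (1.63%) were in none of the 5 windows, which says only that these letters are not there. The E-box CANNTG, present in 72.3% of promoters, was found in Selp (1), Prr9 (2), Cck (3) and Ngfr (2), and not in Prl2c3. Ngfr held 4 copies of the GC box GGGCGG, which 35.7% of promoters hold at least once.

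The GC content of the windows was 38.0% for Prl2c3, 46.7% for Prr9, 51.7% for Selp, 59.3% for Cck and 71.7% for Ngfr, where the quartiles of all promoters were 45.7%, 52.7% and 61.7%. The 5 windows therefore ran from below the lower to above the upper quartile. Those of Prl2c3 and Prl2c5 were identical at 287 of 299 aligned bases. The windows of Prr9 (chr3:92123928-92124197, minus strand) and Ngfr (chr11:95587679-95587948, minus strand) are shown to position 20 because they hold the most unlike motifs of the set. That of Prl2c3 (chr13:12800060-12800329, minus strand) is shown because it belongs to the most abundant gene and holds none of the letters searched. Capitals mark the motif matches.
Prr9: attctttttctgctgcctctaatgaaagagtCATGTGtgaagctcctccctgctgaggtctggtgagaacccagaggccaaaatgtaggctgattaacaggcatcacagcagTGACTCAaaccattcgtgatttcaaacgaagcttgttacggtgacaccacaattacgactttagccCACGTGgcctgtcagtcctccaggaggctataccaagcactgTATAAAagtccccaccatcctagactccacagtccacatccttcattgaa
Ngfr: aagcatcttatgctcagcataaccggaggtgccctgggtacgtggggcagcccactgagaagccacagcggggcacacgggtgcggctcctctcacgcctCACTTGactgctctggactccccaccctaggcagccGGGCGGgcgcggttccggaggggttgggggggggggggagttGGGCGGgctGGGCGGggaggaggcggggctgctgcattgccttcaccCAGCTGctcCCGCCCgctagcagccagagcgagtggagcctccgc
Prl2c3: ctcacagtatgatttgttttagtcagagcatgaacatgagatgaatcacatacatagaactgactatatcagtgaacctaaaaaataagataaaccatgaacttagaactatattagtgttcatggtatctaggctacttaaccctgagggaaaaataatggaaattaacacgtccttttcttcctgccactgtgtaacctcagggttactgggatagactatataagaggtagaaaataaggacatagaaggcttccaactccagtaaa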

How the data were processed

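The authors deposited raw counts by gene symbol, with 1 column for each library. Per the labels' protocols, the libraries were directional and were made from DNase-treated total RNA. The genome build was GRCm39 per the submitters' processing notes, and the aligner, the counting tool and the use of strand are not given in the sources used here. GENCODE M21 and RefSeq tables of GRCm38 were used for lengths, overlaps and sequences, so no gene coordinates of the counted build are given.

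The models were fitted with edgeR 4.0.16 under R 4.3.3 (filterByExpr, TMM, 1 model over all 6 libraries, robust glmQLFit, glmQLFTest, Benjamini-Hochberg over 17433 genes, adjusted p under 0.05). The common biological coefficient of variation was 3.74%, with 3 residual degrees of freedom. The SE is the size of the log2 fold change over the square root of F. Alternatives, among them DESeq2 1.42.0, are given in the closing section. The tests were tried on simulated data with known changes. Transcripts were aligned with Biopython 1.88, and figures drawn with matplotlib 3.10.9.

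The 6 genes and the gene lists were chosen with earlier results of these data known. Named genes were the 6, the main ligands and receptors of each list, up to 4 further called genes per list by log2 fold change with at least 1 CPM, list genes called between the treatments, the 3 nearest profiles, the 5 next in rank and the markers Myog, Myh3 and Mki67. Sprr2h, Sprr3, Top2a, Ccnb1, Cdk1 and other marker genes were named after their values were seen, where they are not among these. Some genes of these lists are not reported here.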

Additional observations from a re-analysis of the deposited data

How the results depend on the processing

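None of the 6 genes was called between 4-PBA and DMSO under the main setting or any alternative that tested it, DESeq2's Wald test included. Not every alternative tested all of them. Prl2c2 had an adjusted p in 13 alternatives against 14 for Prl2c3, and Prr9, Ngfr and Cck in 12 against 13 for Selp. Leaving out 1 library turned the sign for Prl2c2 (0.56 without DMSO replicate 1), Cck (2.10 without DMSO replicate 1, 0.95 without 4-PBA replicate 1) and Prl2c5 (0.02 without DMSO replicate 2, 0.15 without 4-PBA replicate 2). The lowest values were -2.11 for Prl2c2 and -5.11 for Cck, both without 4-PBA replicate 2, and -2.36 for Prl2c5 without 4-PBA replicate 1. These rest on a few reads per library, and a lone library is assumed to vary like the others. Genes called numbered 3825 (DMSO against day 0), 3699 (4-PBA against day 0) and 12 (4-PBA against DMSO) with at least a 2-fold change. Between the treatments 424 were called at an adjusted p under 0.01, and 295 to 1194 when libraries were left out in turn. With at least a 2-fold change, list genes called with DMSO and with 4-PBA against day 0 numbered 1 and 1 (prolactin family), 7 and 7 (neurotrophins), 2 and 1 (cholecystokinin) and 4 and 6 (selectins), and 6 with 4-PBA for the epidermal complex. Between the treatments that setting left 0 in each of these lists, and an adjusted p under 0.01 left 0 for neurotrophins, 0 for cholecystokinin, 1 for selectins and 0 for the epidermal complex. The cholecystokinin count was 0 with library size only and 0 with the 4 libraries compared alone. The selectin count was 1 with the DESeq2 Wald test. The epidermal count was 2 with a filter of 1 count in total and 0 with the 4 libraries compared alone. With libraries left out in turn, counts between the treatments were 0 to 2 (neurotrophins), 0 to 1 (cholecystokinin), 0 to 2 (selectins) and 0 to 3 (epidermal complex). The cause of these moves was not tested.

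Replicate numbers did not pair the libraries (correlation of deviations -0.03, -0.003 and -0.01). With a replicate block, 0 of the 6 genes were called between the treatments, the cholecystokinin count was 0 (Pam, adjusted p = 0.0511) and the epidermal count 0 (S100a11, adjusted p = 0.0692).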
